A study of Mus musculus with 258 samples.

Results

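Endocrine progenitors and newly formed beta cells of the mouse pancreas were compared in bulk RNA. The progenitors were Ngn3-high cells from dorsal pancreas at stage E13.5 (days of embryonic development), sorted for a high signal of the green fluorescent reporter Ngn3-GFP. The beta cells were Ins1-RFP+ cells at E17.5, sorted by a red fluorescent reporter of the insulin gene Ins1. Each stage has 2 libraries, chosen by their titles, so the comparison used 4 of the 6 bulk libraries and of 258 samples in the series. The remaining 2 bulk libraries, Ngn3-low cells from the same E13.5 reporter, entered the model for its estimate of spread. Embryonic day and reporter changed together between the stages, and the labels give the dorsal lobe for the E13.5 cells only, so age, reporter and region cannot be told apart. Whether libraries of the stages were prepared, sequenced and processed together is not given in the sources used here. Any such difference cannot be told apart from stage either. The labels state neither a strain nor whether libraries 1 and 2 came from separate litters. The p-values therefore measure only the spread between these libraries, which may be technical.

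In the embryonic pancreas, Neurog3 (the gene of Ngn3) is switched on for a short time in epithelial progenitors and commits them to the endocrine lineage. Its targets include further transcription factors that divide the cells into beta, alpha, delta and other islet types. A beta cell then makes very large amounts of proinsulin, which enters the endoplasmic reticulum (ER), is folded, passes through the Golgi and is stored in granules until glucose triggers release. Cells under such a load use the unfolded protein response, in which sensors of the ER raise the transcription of chaperones through short promoter elements.

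The promoters of insulin and of 4 genes of ER folding and degradation are shown here because they hold short elements known from insulin transcription and from this response. The 5 were picked after their values were seen. Sequences are the 250 bases before the RefSeq gene start (build GRCm38.p6), all on the plus strand, written 5′ to 3′ with the matched element in capitals.
Ins1: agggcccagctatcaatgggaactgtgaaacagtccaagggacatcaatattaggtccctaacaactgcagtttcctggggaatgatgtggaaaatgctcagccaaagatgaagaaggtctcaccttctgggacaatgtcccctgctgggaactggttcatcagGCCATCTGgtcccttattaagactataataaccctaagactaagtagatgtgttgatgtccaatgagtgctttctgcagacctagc
Hspa5: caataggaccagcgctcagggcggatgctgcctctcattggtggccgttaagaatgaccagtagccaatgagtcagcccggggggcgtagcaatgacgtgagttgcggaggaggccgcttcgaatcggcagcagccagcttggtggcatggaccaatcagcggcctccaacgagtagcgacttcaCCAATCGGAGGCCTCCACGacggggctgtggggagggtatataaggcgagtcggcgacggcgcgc
Ero1lb: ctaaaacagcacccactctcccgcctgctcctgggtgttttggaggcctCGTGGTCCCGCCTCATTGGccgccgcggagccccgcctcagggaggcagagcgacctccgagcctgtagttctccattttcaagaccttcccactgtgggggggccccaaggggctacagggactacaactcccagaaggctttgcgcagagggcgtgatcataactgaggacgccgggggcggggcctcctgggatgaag
Dnajc3: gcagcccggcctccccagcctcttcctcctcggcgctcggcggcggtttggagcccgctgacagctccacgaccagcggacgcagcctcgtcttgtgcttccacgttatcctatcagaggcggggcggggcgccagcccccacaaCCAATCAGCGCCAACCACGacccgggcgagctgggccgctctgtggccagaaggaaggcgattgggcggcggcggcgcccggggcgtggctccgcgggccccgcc
Herpud1: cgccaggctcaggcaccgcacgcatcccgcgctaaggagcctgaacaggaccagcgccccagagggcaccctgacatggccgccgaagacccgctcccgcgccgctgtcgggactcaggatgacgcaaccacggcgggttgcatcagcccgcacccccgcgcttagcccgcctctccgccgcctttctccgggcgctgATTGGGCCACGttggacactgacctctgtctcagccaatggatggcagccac
The Ins1 window is chr19:52264047-52264296, and the capitals mark the E-box letters GCCATCTG at positions -86 to -79 from the start. In Hspa5 (chr2:34771840-34772089) they mark the ER stress response element, ERSE (CCAAT and CCACG with 9 bases between them), at -65 to -47. Ero1lb (chr13:12565633-12565882) holds the same element on the minus strand at -201 to -183, and Dnajc3 (chr14:118937682-118937931) holds it on the plus strand at -105 to -87. In Herpud1 (chr8:94386179-94386428) the capitals mark the related ERSE-II (ATTGG and CCACG with 1 base between them), at -52 to -42. Each element was searched on both strands in the 250 bases, and matches of different elements overlapped in 0 promoters. Of 27025 genes with a promoter in the RefSeq table, 35 (0.13%) held ERSE, 10 (0.037%) held ERSE-II and 344 (1.27%) held the E-box letters. A match describes the letters only and shows no binding.

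Between 11957415 and 16860544 reads fell in genes in each of the 4 libraries. Where no read was seen, 3 counts (0.179 to 0.250 CPM) is the level that depth allows, where CPM is the usual read count scaled to a common library total. Values below are CPM normalised with trimmed-mean factors, given for library 1 and then library 2 of each stage, and differences are log2 fold changes from edgeR as Ins1-positive minus Ngn3-high. Of 15684 genes tested, 50.9% were called at an adjusted p under 0.05, 26.1% higher and 24.9% lower. The median log2 fold change of all genes tested was 0.01, with quartiles of -0.48 and 0.70. The libraries of the stages did not overlap for 75.5% of genes tested (38% higher, 37.5% lower in Ins1-positive cells), so a lack of overlap is common here. In whole-population RNA, fewer cells of a type and less RNA per cell cannot be told apart. The Ins1-positive libraries differed from each other in pancreatic acinar transcripts, which summed to 2672 CPM in library 1 and 45022 CPM in library 2. The same sum in Ngn3-high cells was 213.6 and 184.3 CPM. Of 10068 genes at 10 CPM or more in an Ins1-positive library, 92 were over 4-fold higher in library 2 and 0 in library 1, and 67 of the 92 were called higher between the stages. Neither pair was a duplicate deposit, as counts within a pair varied 17.2 times (Ngn3-high) and 57.9 times (Ins1-positive) as much as sampling alone gives.

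The labels were first checked on the genes behind the sorts. Neurog3 (chromosome 10, 62133090 to 62134763, ENSMUSG00000044312) stood at 1199.5 and 1085 CPM in Ngn3-high cells and at 30.2 and 28.4 CPM in Ins1-positive cells. Ins1 (chromosome 19, 52264297 to 52265015, ENSMUSG00000035804) stood at 90.9 and 86.5 CPM and then at 34883 and 23723 CPM. Both followed the labels, and as the sort used them, their change is no separate finding. Insulin reads from Ins1 and Ins2 together took 9.01% and 6.01% of all reads in genes of the Ins1-positive libraries, against 0.0272% and 0.0224% in Ngn3-high cells.

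Hormone genes rose and fell in Ins1-positive cells, with insulin and Iapp among the rises and Cck and Gast among the falls. Of 11 hormone and peptide genes tested, 6 rose and 3 fell, with a median log2 fold change of 3.02. The list includes Ins1, whose reporter was used for the sort. In the fit without Ins1 and Ins2, 4 of its genes were called higher. Per length of transcript (RPKM, normalised for length and depth), Ins2 was the most abundant at 105420 and 67757 RPKM. Ins1 followed with 34334 and 23349 RPKM, and Iapp, the gene of the amyloid peptide co-secreted with insulin, with 9699 and 7432 RPKM. The order among these hormone genes was the same in both Ins1-positive libraries. In library 2, however, the acinar genes Ctrb1 (15826 RPKM) and Pnliprp1 (8004 RPKM) stood above Iapp.

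Cck, the gene of the gut and brain peptide cholecystokinin, showed the opposite course. It was at 114 and 157 CPM in Ngn3-high cells and at 1.07 and 2.04 CPM in Ins1-positive cells. Both Ngn3-high libraries were high and the stages did not overlap (log2 fold change -6.46, SE 0.278, edgeR adjusted p = 2.52e-06). In the E13.5 Ngn3-low libraries Cck was at 1.24 and 1.45 CPM, so of the 3 bulk populations the Ngn3-high cells had the highest level. Gast, the gene of gastrin, fell from 102 and 90.0 CPM to 3.56 and 6.82 CPM (-4.23, SE 0.352, edgeR adjusted p = 4.18e-05).

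Npy, which encodes neuropeptide Y, was low in progenitors at 2.03 and 2.996 CPM and reached 160.5 and 125 CPM (5.86, SE 0.216, edgeR adjusted p = 1.28e-06). Ppy, the gene of pancreatic polypeptide, rose from 13.3 and 9.82 CPM to 86.0 and 102 CPM. Hormones of other islet cells were unevenly spread between the Ins1-positive libraries. The delta cell hormone Sst stood at 714 CPM in library 1 and 1496 CPM in library 2, after 4.48 and 6.16 CPM in the progenitors. Its log2 fold change of 7.71 (edgeR adjusted p = 3.92e-05) was 7.09 without Ins1-positive library 2. The alpha cell hormone Gcg was at 872 and 1152 CPM in progenitors and at 775 and 1604 CPM in Ins1-positive cells, and the groups overlapped (0.23, SE 0.300, edgeR adjusted p = 0.542). Gcg passed the test at 0.66 without Ins1-positive library 1 and was -0.38 without library 2. Pyy, the gene of peptide YY, was also not called (0.31, edgeR adjusted p = 0.319) and passed at 0.68 without Ins1-positive library 1. Ghrl, the epsilon cell hormone ghrelin, was called lower at -0.85 (edgeR adjusted p = 0.0338), but not without Ngn3-high library 1 (-0.48) or Ins1-positive library 1 (-0.50), or with DESeq2 (-0.81).

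**Figure D1:**
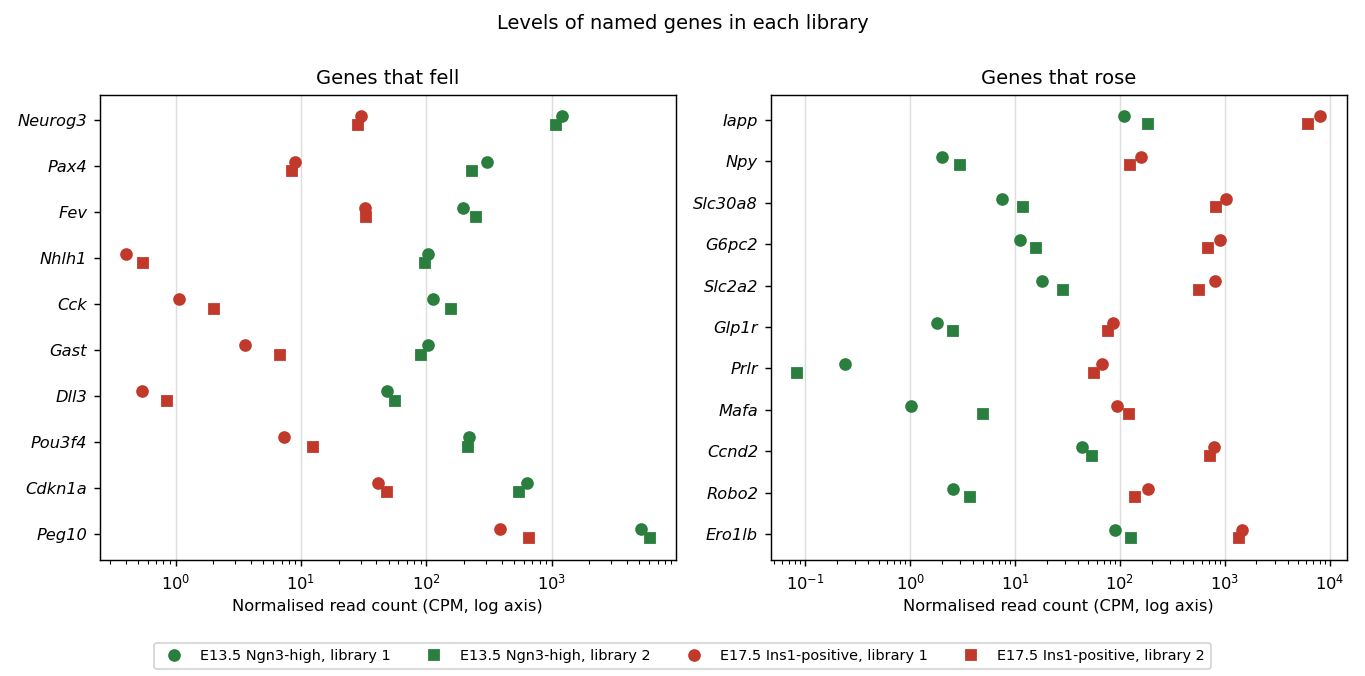
Normalised read count (CPM, log axis) of 10 genes that fell and 11 that rose, 1 point per library, with green for E13.5 Ngn3-high and red for E17.5 Ins1-positive cells. Within each gene the green and red points do not overlap, and the shift is widest for Nhlh1 among the falls and for Prlr among the rises shown.

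Genes that let a beta cell sense glucose, amino acids and hormones rose more evenly. Of 22 genes tested, 16 rose and 2 fell, with a median of 2.49. The change was greatest for the prolactin receptor gene Prlr (chromosome 15, 10177238 to 10349190), whose product carries the growth signal of pregnancy hormones to beta cells. It had 4 and 1 reads in the Ngn3-high libraries, 0.239 and 0.0832 CPM, and reached 67.7 and 57.1 CPM. Its log2 fold change was 8.43 (SE 0.427, edgeR adjusted p = 4.89e-06), and it was 9.42 without Ngn3-high library 1.

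G6pc2, a phosphatase gene that opposes glucose phosphorylation in beta cells, went from 11.05 and 15.7 CPM to 905 and 698 CPM (5.91, SE 0.304, edgeR adjusted p = 5.17e-06). The incretin receptor gene Glp1r went from 1.79 and 2.58 CPM to 85.2 and 76.3 CPM (5.23, SE 0.281, edgeR adjusted p = 6.29e-06). In each of these genes both Ins1-positive libraries were far above both progenitor libraries. Slc2a2, the glucose transporter GLUT2, had a dip in the middle population. It was at 122 and 108 CPM in Ngn3-low cells, 18.1 and 28.5 CPM in Ngn3-high cells and 804 and 564 CPM in Ins1-positive cells (4.89, SE 0.269, edgeR adjusted p = 7.05e-06). Trpm5, a calcium-activated cation channel gene, rose by 3.61 and Nnat, an imprinted gene whose product aids insulin processing at the ER, by 3.43 to 4186 and 3819 CPM.

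Kcnj11, the pore subunit of the ATP-sensitive potassium channel, was at 127 and 115 CPM and at 104 and 86.5 CPM (-0.35, edgeR adjusted p = 0.0776), and passed as lower with total-count scaling (-0.43) and with no filter (-0.35). The receptor gene Adcyap1r1, for the neuropeptide PACAP, fell by 2.37 on the log2 scale to 3.16 and 4.78 CPM.

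Granule genes rose in most cases. Of 25 genes of granule proteins and prohormone processing, 19 rose and 4 fell, with a median of 1.42. Sytl4, which encodes the granule docking protein granuphilin, went from 27.6 and 47.6 CPM to 1423 and 1192 CPM (5.13, SE 0.270, edgeR adjusted p = 5.77e-06). Bace2, a protease gene of the granule, went from 2.39 and 2.58 CPM to 98.1 and 74.2 CPM (5.12, SE 0.222, edgeR adjusted p = 2.52e-06). Both rose in each Ins1-positive library.

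Chgb, the gene of the granule protein chromogranin B, was among the most abundant transcripts of Ngn3-high cells per length (3085 and 3440 RPKM). It fell from 8453 and 9426 CPM to 2741 and 2326 CPM, while Chga, its paralogue, rose from 972 and 983 CPM to 5275 and 3961 CPM. The log2 fold changes were -1.82 (SE 0.218, edgeR adjusted p = 0.000276) for Chgb and 2.24 (SE 0.287, edgeR adjusted p = 0.00039) for Chga. The granule membrane gene Ptprn2 was level at 1099 and 1158 CPM and 1240.1 and 1066 CPM (0.03, edgeR adjusted p = 0.894).

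Of 25 genes of vesicle docking and exocytosis, 13 rose and 5 fell (2 without Ngn3-high library 1, 3 without Ins1-positive library 2), with a median of 0.45. The small GTPase genes Rab3b and Rab27a rose by 2.61 and 1.64, and Snap25, a membrane fusion gene, by 1.97 to 95.7 and 98.8 CPM. Rph3al, a Rab-binding effector of granule release, fell from 734 and 626 CPM to 356 and 292 CPM (-1.07, SE 0.156, edgeR adjusted p = 0.000759). The calcium sensor gene Syt7 was not called (-0.16, edgeR adjusted p = 0.450), and stood at 657 and 588 CPM and at 595 and 523 CPM.

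Of 25 ion channel genes tested, 13 rose and 4 fell, with a median of 0.65. Calcium channel subunit genes were among the falls. Cacna2d1, an auxiliary subunit, went from 637 and 780.0 CPM to 179 and 175 CPM (SE of the log2 fold change 0.140, edgeR adjusted p = 1.83e-05). The T-type channel gene Cacna1h went from 901 and 638 CPM to 229 and 230.3 CPM (-1.74, SE 0.178, edgeR adjusted p = 0.000119). Kcnmb2, a subunit of calcium-activated potassium channels, rose by 2.91 to 98.2 and 87.8 CPM, and the potassium channel gene Kcnk16 was level at 312 and 288 CPM and 315 and 264 CPM (-0.05, edgeR adjusted p = 0.802).

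Most genes tested of the route from the ER membrane to the Golgi rose in Ins1-positive cells. Of 28 genes of ER chaperones and the unfolded protein response, 25 rose and 0 fell, with a median of 1.52. Of 25 genes of signal peptide translocation and glycosylation 20 rose and 0 fell (median 0.97), and of 27 genes of coat proteins and Golgi transport 25 rose and 0 fell (median 0.76). The medians of these lists lie above the upper quartile of all genes tested.

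Hspa5, the ER chaperone BiP whose promoter is printed above, rose from 1770.5 and 1567 CPM to 5496 and 5049.9 CPM (1.66, SE 0.179, edgeR adjusted p = 0.000155). Ero1lb, the beta cell form of the oxidase that drives disulfide bonds, went from 89.9 and 128 CPM to 1460.5 and 1359.7 CPM (3.69, SE 0.207, edgeR adjusted p = 7.39e-06). Sdf2l1, part of a chaperone complex, had the greatest log2 fold change of the list at 3.77 (SE 0.109, edgeR adjusted p = 7.1e-07). In these genes the Ins1-positive libraries lay close together and above both progenitor libraries.

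The co-chaperone genes Dnajc3 and Dnajb9 rose by 2.27 and 2.24. Herpud1, a gene of ER-associated degradation named here for its promoter, rose from 81.6 and 57.7 CPM to 255 and 233 CPM (1.81, SE 0.161, edgeR adjusted p = 5.84e-05). Atf4, the transcription factor whose protein is controlled mainly by translation, was not called (0.23, edgeR adjusted p = 0.305). Sel1l, an adaptor of ER-associated degradation, was not called either (0.20, edgeR adjusted p = 0.422), and passed at 0.48 without Ins1-positive library 1.

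In the next steps of the route, Sec11c, a subunit of the signal peptidase, rose from 17.7 and 15.1 CPM to 79.5 and 93.8 CPM (2.39, SE 0.145, edgeR adjusted p = 1.05e-05). The translocon genes Tram1 and Ssr4 rose by 1.82 and 1.70. Sec24d, a cargo-binding coat subunit of vesicles that leave the ER, went from 38.2 and 47.3 CPM to 389 and 336 CPM (3.09, SE 0.141, edgeR adjusted p = 3.29e-06). Creb3l2, a transcription factor that activates genes of this route, rose from 56.3 and 64.999 CPM to 298 and 260.1 CPM (2.20, SE 0.125, edgeR adjusted p = 7.77e-06). Arf1 and Sec13, which act in Golgi and ER coats, were not called (0.22 and 0.21, edgeR adjusted p = 0.151 and 0.126), though Arf1 passed with DESeq2 at 0.26.

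**Figure D2:**
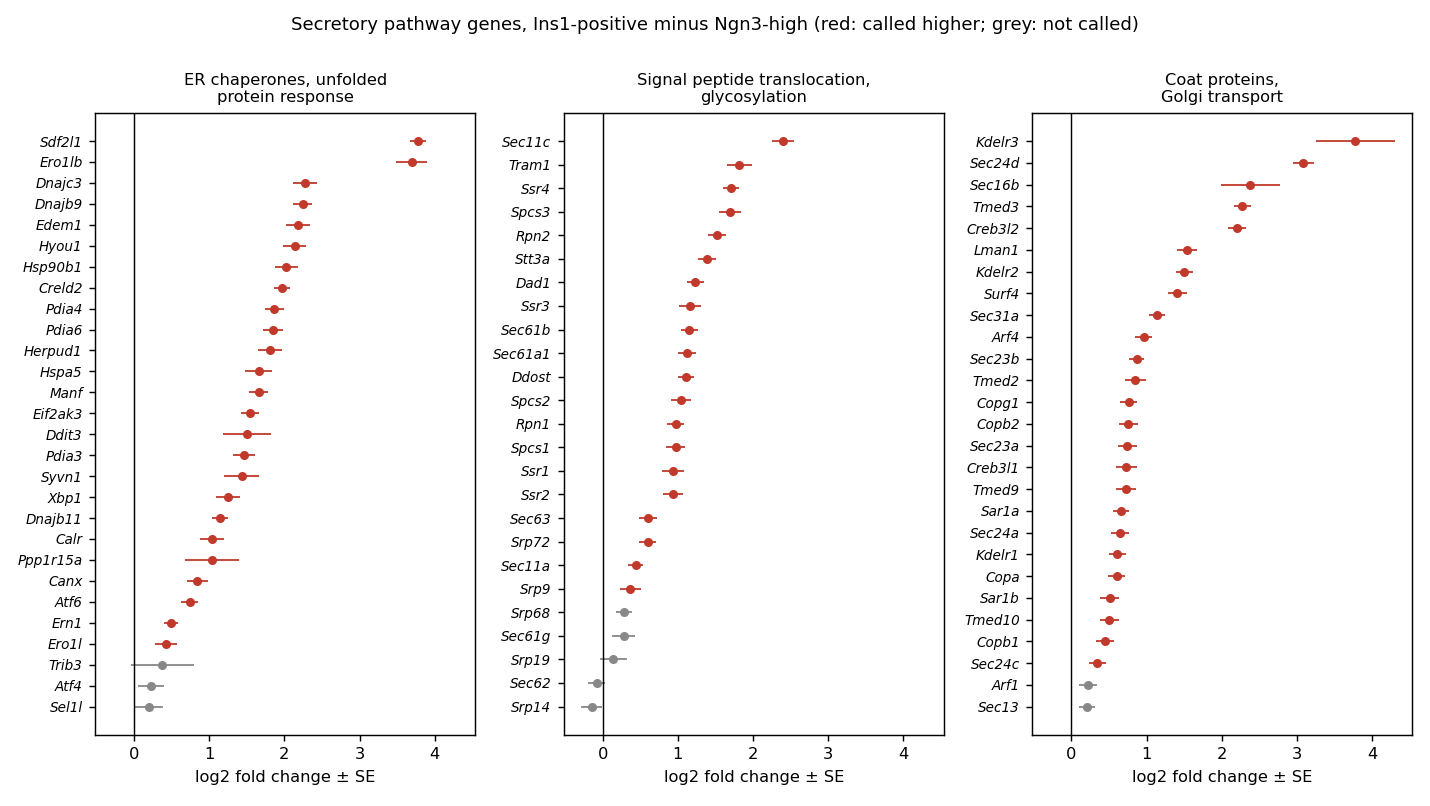
The log2 fold change with its standard error (edgeR, Ins1-positive minus Ngn3-high) of each tested gene in 3 lists of the secretory route, with red for genes called higher and grey for genes not called. Of 28, 25 and 27 genes, 25, 20 and 25 are red, and none was called lower.

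The ER chaperone list summed to 26621 CPM in Ins1-positive library 1 and 25096 CPM in library 2, beside acinar sums of 2672 and 45022 CPM. With library 2 left out 24 of the ER chaperone genes were called higher, and with library 1 left out 24. The Ngn3-high sums were 8698 and 8455 CPM for the ER chaperone list and 213.6 and 184.3 CPM for the acinar list. Library 1 also held acinar transcripts above that progenitor level, so leaving out library 2 does not test their part. The part of acinar cells in these rises was not tested.

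Of the 28 ER chaperone genes, 25 had a promoter in the RefSeq table. ERSE was found in 9 of the 25, namely Calr, Canx, Creld2, Dnajc3, Ero1lb, Hsp90b1, Hspa5, Pdia6 and Syvn1, against 0.13% of all genes with a promoter. All 9 were called higher, with log2 fold changes from 0.84 to 3.69 and a median of 1.85. Of the 16 list genes with a promoter and without ERSE, 13 were called higher, with a median of 1.36. Outside the list, 11 further genes with ERSE were tested, of which 4 were called higher and 2 lower. The list was drawn up from genes known for this response, several of which are the genes in which the element was first described.

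The transcription factors of the progenitor stage fell almost throughout. Of 22 progenitor-stage factors tested, 20 fell and 0 rose, with a median of -2.02. Nhlh1 (chromosome 1, 172052292 to 172057596), a basic helix-loop-helix gene of newborn neurons and endocrine cells, fell furthest. It stood at 0.701 and 0.458 CPM in the Ngn3-low population, at 103 and 97.5 CPM in Ngn3-high and at 0.403 and 0.549 CPM in Ins1-positive cells, so the middle population alone was high (-7.71, SE 0.218, edgeR adjusted p = 7.1e-07). Fev, which marks late endocrine progenitors, and Pax4, which favours beta and delta fates, fell by 2.76 and 4.94 on the log2 scale. Atoh8, another basic helix-loop-helix gene, was not called (edgeR adjusted p = 0.0606), and passed at -2.14 without Ins1-positive library 2 and at -1.14 with no filter.

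Factors kept into the islet moved in both directions. Of 24 islet transcription factors, 9 rose and 8 fell, with a median of 0.20, beside 26.1% and 24.9% of all genes tested. Mafa, which activates insulin in mature beta cells, went from 1.02 and 4.91 CPM to 94.8 and 121 CPM (5.28, edgeR adjusted p = 6.41e-05), and the value was 4.47 or 6.71 when Ngn3-high library 1 or 2 was left out. Glis3, a zinc finger regulator of insulin, rose by 1.77, Mlxipl, the glucose-responsive factor ChREBP, by 1.31 and Pdx1, the pancreatic and beta cell master factor, by 1.05.

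Nkx2-2, needed for beta cell identity, fell from 693 and 782 CPM to 309.9 and 294 CPM (-1.29, SE 0.123, edgeR adjusted p = 8.46e-05), and Rfx6, an islet factor downstream of Neurog3, from 421 and 403 CPM to 203 and 187 CPM (-1.08, SE 0.108, edgeR adjusted p = 0.000103). Both were lower in each Ins1-positive library. Neurod1, a direct target of Neurog3 that remains on in islet cells, was level (0.01, edgeR adjusted p = 0.952). Nkx6-1, a beta cell factor, stood at 241 and 399.7 CPM and at 315 and 449 CPM and was not called (0.25, SE 0.289, edgeR adjusted p = 0.490).

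Regulators of alpha cells fell while the glucagon transcript did not. Of 10 alpha cell genes, 7 fell and 2 rose, with a median of -2.38. Pou3f4, a homeobox gene of alpha cells, went from 218 and 214 CPM to 7.32 and 12.5 CPM (-4.45, SE 0.238, edgeR adjusted p = 6.29e-06). Irx1 and Irx2, also homeobox genes that mark alpha cells, fell by 2.83 and 2.68, and by 3.57 and 3.49 on the log2 scale without Ins1-positive library 2. In these 3 genes library 2 was the higher Ins1-positive library, as it was for Gcg.

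**Figure D3:**
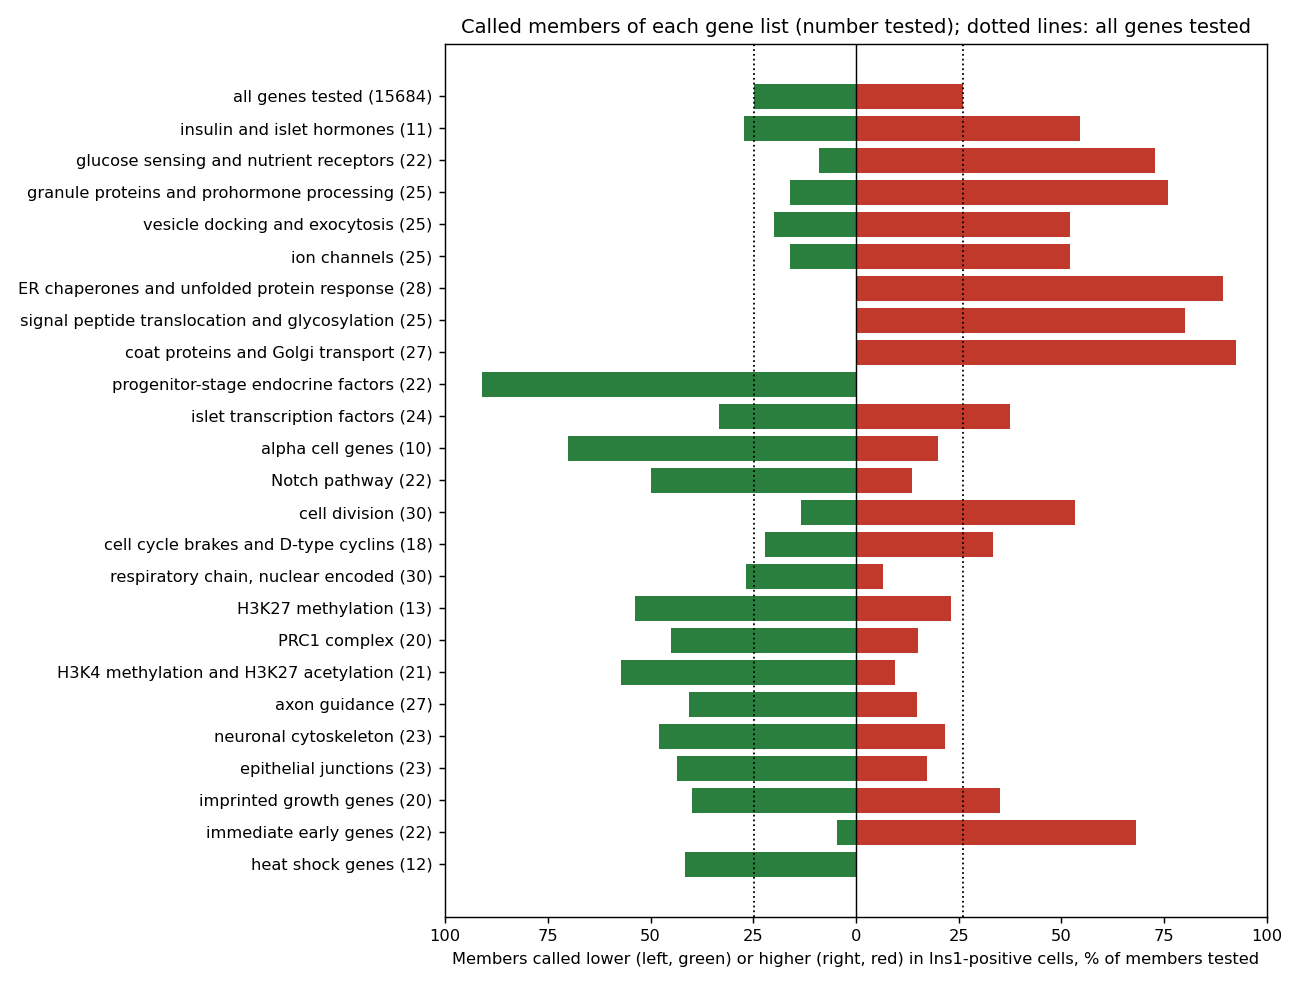
Share of the tested members of each gene list that edgeR called higher (red, right) or lower (green, left) in Ins1-positive cells, in percent, with dotted lines at the shares of all 15684 genes tested (26.1% and 24.9%). The 3 lists of the secretory route have no green bar, and the list of progenitor-stage factors has no red bar.

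Notch ligands and modifiers of the progenitors fell. Of 22 Notch pathway genes tested, 11 fell and 3 rose (5 without Ins1-positive library 1), with a median of -0.46. Dll3, a divergent ligand that dampens Notch within the cell, went from 48.7 and 56.4 CPM to 0.537 and 0.862 CPM (-6.23, SE 0.265, edgeR adjusted p = 2.52e-06). The activating ligand gene Dll1, through which Ngn3-positive cells signal to their neighbours, went from 119 and 81.8 CPM to 22.4 and 18.1 CPM (-2.31, SE 0.197, edgeR adjusted p = 4.71e-05). Hey1, a target gene of the pathway, fell by 2.76, while the ligand gene Jag2 rose from 46.7 and 30.4 CPM to 133 and 98.1 CPM (1.58, SE 0.215, edgeR adjusted p = 0.000542). The target Hes1 was low at both stages, at 6.81 and 3.91 CPM and at 3.49 and 7.604 CPM (0.01, edgeR adjusted p = 0.985, and -0.65 without Ins1-positive library 2), and the receptor Notch1 was not called (0.23, edgeR adjusted p = 0.185) but passed at 0.45 without Ngn3-high library 1.

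More cell division transcripts were higher than lower in the later cells, and 2 inhibitors of the cycle were much lower. Of 30 cell division genes, 16 rose and 4 fell, with a median of 0.52. Ccna2, the cyclin of DNA synthesis and mitosis, rose from 14.9 and 16.5 CPM to 47.4 and 43.5 CPM (1.54, SE 0.1197, edgeR adjusted p = 3.04e-05). Mki67, the proliferation marker, went from 41.985 and 51.7 CPM to 110.3 and 113 CPM (1.25, SE 0.137, edgeR adjusted p = 0.000167), below the 543 and 610.2 CPM of Ngn3-low cells. Cdk1, the mitotic kinase, Rrm2, a subunit of ribonucleotide reductase, and Cdc6, which loads the replicative helicase, rose by 1.45, 1.37 and 1.61.

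The 4 genes that fell encode subunits of that helicase. Mcm2 went from 166 and 134 CPM to 78.5 and 61.1 CPM (-1.10, SE 0.152, edgeR adjusted p = 0.00057), and Mcm3 from 61.8 and 55.7 CPM to 32.98 and 30.4 CPM (-0.89, SE 0.113, edgeR adjusted p = 0.00038). Mcm5 (-0.49) and Mcm6 (-0.37) were smaller changes. Mcm5 was not called without Ngn3-high library 1 or 2 or Ins1-positive library 2 (-0.43, -0.54 and -0.29). Mcm6 was not called without Ngn3-high library 2 or Ins1-positive library 1 or 2 (-0.28, -0.39 and -0.35). The falls thus numbered 2 without Ngn3-high library 2 or Ins1-positive library 2.

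Among 18 cell cycle brakes and D-type cyclins tested, 6 rose and 4 fell, with a median of 0.37. Of all genes tested, 26.1% rose and 24.9% fell, and the list as a whole did not fall. Cdkn1a (chromosome 17, 29090979 to 29100722), the inhibitor p21, went from 630.2 and 546 CPM to 40.9 and 48.6 CPM (-3.72, SE 0.173, edgeR adjusted p = 3.45e-06). Cdkn1c, the inhibitor p57, went from 256 and 239.9 CPM to 28.5 and 62.6 CPM (-2.45, SE 0.304, edgeR adjusted p = 0.00033), and fell by 3.12 on the log2 scale without Ins1-positive library 2. In both genes the Ins1-positive libraries were also below the Ngn3-low cells, which had 264 and 211 CPM of Cdkn1a and 223 and 198 CPM of Cdkn1c.

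Ccnd2, the main D-type cyclin of beta cells, showed the reverse, from 43.3 and 53.6 CPM to 789 and 719 CPM (3.96, SE 0.199, edgeR adjusted p = 4.68e-06). Ccnd1 rose by 1.08. Ccnd3 and the kinase partner Cdk4 fell by 1.28 and 1.00 on the log2 scale, so the D-type cyclins did not move together.

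**Figure D4:**
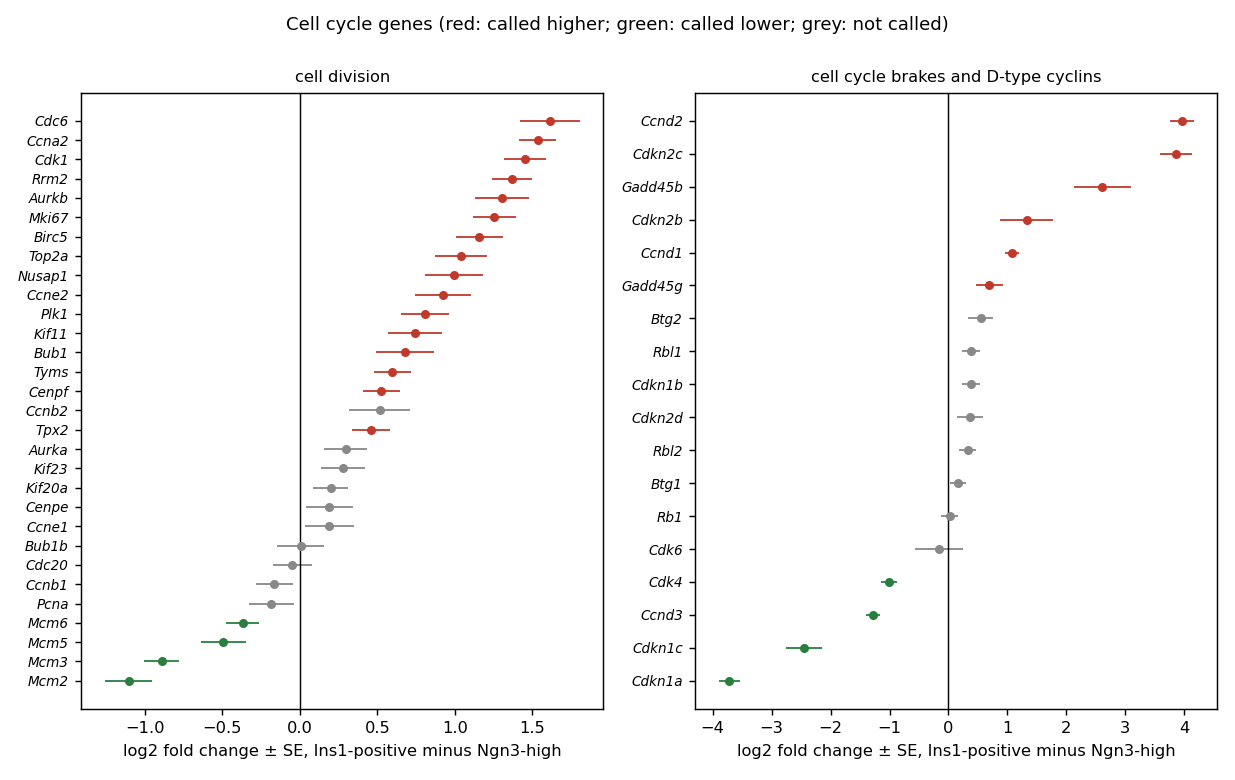
The log2 fold change with its standard error (edgeR, Ins1-positive minus Ngn3-high) of 30 cell division genes and 18 cell cycle brakes and D-type cyclins, with red for called higher, green for called lower and grey for not called. The 4 green points of the left panel are Mcm genes, and Cdkn1a and Ccnd2 mark the ends of the right panel.

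Markers of endothelium, a tissue that also divides, were higher as well. All 11 endothelial markers tested rose, with sums of 15.8 and 9.82 CPM in Ngn3-high and 66.03 and 77.2 CPM in Ins1-positive cells. Their part in the cell division counts was not tested.

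Genes of chromatin regulators that act on histone H3K27, a residue whose methylation and acetylation the series follows beside H3K4 methylation, fell more often than they rose. Of 13 genes of H3K27 methylation, 7 fell (4 without Ins1-positive library 2) and 3 rose, with a median of -0.39. Ezh2, the methyltransferase of dividing cells, went from 86.6 and 92.3 CPM to 28.9 and 28.1 CPM (-1.65, SE 0.102, edgeR adjusted p = 1.12e-05). Its paralogue Ezh1 rose from 41.03 and 35.8 CPM to 70.3 and 61.3 CPM (0.77, SE 0.131, edgeR adjusted p = 0.00164), and exceeded Ezh2 in CPM in both Ins1-positive libraries. Jarid2 and Mtf2, accessory subunits that guide the complex to DNA, fell by 1.38 and 1.23 on the log2 scale.

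Kdm6b, the gene of the H3K27 demethylase Jmjd3, changed little by comparison. It stood at 350.4 and 315 CPM in progenitors and 272 and 236 CPM in Ins1-positive cells (-0.39, SE 0.124, edgeR adjusted p = 0.0288). This call was lost without Ngn3-high library 1 (-0.30), without Ins1-positive library 2 (-0.29) and in a fit of the 4 libraries alone (-0.38).

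Of 20 genes of the complex that reads H3K27 methylation, PRC1, 9 fell and 3 rose, with a median of -0.25. Of its chromodomain subunit genes, Cbx2 fell from 109 and 86.4 CPM to 30.3 and 24.1 CPM (-1.84, SE 0.157, edgeR adjusted p = 4.69e-05), and Cbx7 rose from 11.4 and 8.66 CPM to 35.6 and 29.9 CPM (1.70, SE 0.198, edgeR adjusted p = 0.000235). Of 21 genes whose enzymes set or remove H3K4 methylation and H3K27 acetylation, 12 fell (7 without Ins1-positive library 2) and 2 rose (1 without Ngn3-high library 2 or Ins1-positive library 1). Hdac1, a deacetylase, and Kdm1a, an H3K4 demethylase, fell by 1.34 and 0.91 on the log2 scale. The histone acetyltransferase gene Kat2b, which is not specific to H3K27, rose by 1.50 to 77.5 and 72.6 CPM.

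Dnmt3a, a de novo DNA methyltransferase, was level at 865 and 877 CPM and at 865 and 849.8 CPM (-0.02, edgeR adjusted p = 0.889). Tdg, a glycosylase of active demethylation, fell from 121 and 129 CPM to 57.7 and 61.1 CPM (-1.07, SE 0.0993, edgeR adjusted p = 6.96e-05).

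Among listed genes shared with neurons, more fell than rose. Over all genes tested, 24.9% fell and 26.1% rose, and without Ngn3-high library 1 the axon guidance falls were near that general share. Of 27 axon guidance genes, 11 fell (7 without Ngn3-high library 1) and 4 rose (7 without Ins1-positive library 1 or with no filter), with a median of -0.34. The Slit receptor gene Robo2 (chromosome 16, 73891976 to 75447443), which helps to hold islet cells together, went from 2.57 and 3.75 CPM to 184 and 139 CPM (5.70, SE 0.233, edgeR adjusted p = 2.14e-06). Robo1 rose by 2.20, while the ligand gene Slit1 was level at 129.7 and 109 CPM and 124 and 111 CPM (-0.03, edgeR adjusted p = 0.920). The receptor gene Ephb2 and the netrin gene Ntn4 fell by 2.31 and 2.36 on the log2 scale.

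Among 23 genes of the neuronal cytoskeleton, 11 fell and 5 rose, with a median of -0.31. Mapt, the gene of the microtubule protein tau, went from 13.02 and 18.1 CPM to 269 and 239.6 CPM (4.04, SE 0.205, edgeR adjusted p = 4.89e-06). The neurofilament gene Nefm went from 269 and 250.1 CPM to 36.4 and 46.8 CPM (-2.64, SE 0.240, edgeR adjusted p = 6.35e-05). Nefl, its partner, fell to under 1 CPM (-4.51), and Dpysl4 and Dpysl5, growth cone genes, fell by 3.10 and 2.74 on the log2 scale.

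Cell contacts changed in composition. Of 23 epithelial junction genes, 10 fell and 4 rose (2 without Ngn3-high library 2), with a median of -0.13. The neural cadherin gene Cdh2 rose from 27.4 and 33.5 CPM to 163 and 144 CPM (2.34, SE 0.144, edgeR adjusted p = 1.12e-05), and the epithelial cadherin gene Cdh1 by 0.69. The tight junction genes Cldn4 and Cldn6 fell by 1.97 and 1.83, and Lama5, a basement membrane laminin, by 1.94. A separate list of migration and mesenchymal regulators was mixed. Of 15 tested, 4 rose and 5 fell, with a median of 0.11, beside 26.1% and 24.9% of all genes tested. Its greatest fall was Fscn1, which bundles actin in protrusions of moving cells. Fscn1 went from 184 and 159 CPM to 15.7 and 18.4 CPM (-3.34, SE 0.134, edgeR adjusted p = 1.91e-06).

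Imprinted genes, expressed from 1 parental copy, held some of the most abundant transcripts of both stages. Of 20 tested, 7 rose and 8 fell, with a median of 0.02, beside 26.1% and 24.9% of all genes tested. Their summed level was 22667 and 22887 CPM in progenitors and 22789 and 22149 CPM in Ins1-positive cells. Peg10 (chromosome 6, 4747306 to 4760517), a gene derived from a retrotransposon, stood at 233 and 202 CPM in the Ngn3-low population, at 5125 and 6033 CPM in Ngn3-high and at 387 and 663 CPM in Ins1-positive cells (-3.41, SE 0.268, edgeR adjusted p = 3.21e-05). Its neighbour Sgce fell by 2.35. Dlk1, the gene of a membrane protein of growing tissues, rose from 497 and 529 CPM to 2065 and 1750.4 CPM (1.90, SE 0.142, edgeR adjusted p = 2.6e-05), and Meg3 of the same cluster by 1.47. The RNA gene H19 was at 112 CPM in Ins1-positive library 1 and 713 CPM in library 2 and was not called (-1.10, edgeR adjusted p = 0.182), but passed at -2.98 without library 2 and at -1.11 with no filter.

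Immediate early genes, which respond within minutes to stimuli and to cell handling, were higher in Ins1-positive than in Ngn3-high cells. Of 22 tested, 15 rose and 1 fell, with a median of 1.39. Socs3, a feedback inhibitor of cytokine signals, went from 15.8 and 11.7 CPM to 219 and 138 CPM (3.69, SE 0.242, edgeR adjusted p = 1.36e-05). Junb and Myc, transcription factor genes, rose by 2.51 and 2.67. The summed list stood at 3703 and 2769 CPM in Ngn3-high and at 11426 and 8337 CPM in Ins1-positive cells, with library 1 the higher in both. In the E13.5 Ngn3-low libraries it stood at 8454 and 8426 CPM, so of the 3 bulk populations the Ngn3-high cells had the lowest sum. White blood cell markers, which include cells rich in these transcripts, rose for 11 of 12 genes. They summed to 23.3 and 9.07 CPM in Ngn3-high, 96.7 and 168 CPM in Ins1-positive and 4867 and 4013 CPM in Ngn3-low cells. Their part in the result was not tested.

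The cytosolic heat shock genes moved otherwise. Of 12 tested, 5 fell (3 without Ngn3-high library 2 or Ins1-positive library 2) and 0 rose (3 without Ins1-positive library 2 or with no filter). Hspa8, the constitutive cytosolic chaperone, went from 2149 and 2005 CPM to 523 and 444 CPM (-2.10, SE 0.172, edgeR adjusted p = 3.85e-05), opposite to its ER counterpart Hspa5. Hsp90aa1 fell by 1.35. The inducible gene Hspa1a was higher in library 1 than in library 2 of each stage, at 208 and 52.3 CPM and at 491 and 138 CPM, and was not called (1.27, edgeR adjusted p = 0.189), but passed at 1.91 without Ins1-positive library 2 and at 1.27 with no filter.

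Nuclear genes of the respiratory chain changed little. Of 30 tested, 20 were not called, 8 were lower and 2 higher, with a median of -0.24. Among all genes tested 24.9% were lower and 26.1% higher, so the share of lower genes here was near the general one. The 8 became 16 when libraries were scaled by total counts, 5 without Ngn3-high library 1 and 3 without Ins1-positive library 1. Cycs, the gene of cytochrome c, went from 58.9 and 60.2 CPM to 23.7 and 23.05 CPM (-1.35, SE 0.116, edgeR adjusted p = 4.92e-05). Atp5a1, a subunit of the ATP synthase, was not called (-0.16, edgeR adjusted p = 0.290).

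Transcripts of other pancreatic and non-epithelial cells accompanied the Ins1-positive libraries. Of the 24 acinar enzyme genes tested, 24 rose (15 without Ngn3-high library 1 or 2). The list has 27 members, and those near 0 in Ngn3-high cells could pass the expression filter only through other libraries. The count of rises was therefore partly set by the filter. The whole list took 0.250% of reads in Ins1-positive library 1 and 4.28% in library 2. Cela2a, an elastase gene, was at 80.3 CPM in library 1 and 1932 CPM in library 2, after 0.478 and 0.0832 CPM in progenitors, and its log2 fold change of 11.62 (edgeR adjusted p = 0.00104) was 7.98 without library 2, 12.56 without library 1, and 13.43 and 11.01 without Ngn3-high library 1 or 2. Cpa1, an acinar carboxypeptidase that also marks early tip progenitors, was at 150.5 and 2733 CPM, after 36.6 and 39.4 CPM (5.24, edgeR adjusted p = 0.0047). For Cpa1 the call was lost without Ngn3-high library 1 or 2 (5.29 without the latter), and the value was 1.99 without Ins1-positive library 2 and 6.17 without library 1. Bhlha15, a secretory cell factor also known as Mist1, was less uneven, at 71.0 and 111 CPM after 10.3 and 7.07 CPM (3.37, SE 0.255, edgeR adjusted p = 2.7e-05).

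Mesenchymal markers summed to 64.98 and 97.9 CPM in Ngn3-high and to 203 and 757 CPM in Ins1-positive cells. Of 11 listed, 8 passed the expression filter. A marker near 0 in Ngn3-high cells could pass it only through other libraries, so the count of rises was partly set by the filter. All 8 tested rose, but 2 without Ngn3-high library 1 and 5 without Ins1-positive library 2. Liver markers summed to 128 CPM in Ins1-positive library 2 and 14.2 CPM in library 1, against 33.7 and 21.9 CPM in the progenitors. The macrophage gene C1qa rose from 4.90 and 3.08 CPM to 48.1 and 72.4 CPM and the endothelial gene Pecam1 from 2.69 and 2.83 CPM to 9.54 and 10.9 CPM, both low beside the endocrine genes. The part of these cells in the results above was not tested. The values without library 2 are no such test, because library 1 also held acinar transcripts. They summed to 2672 CPM there, above the 213.6 and 184.3 CPM of the Ngn3-high libraries.

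**Figure D5:**
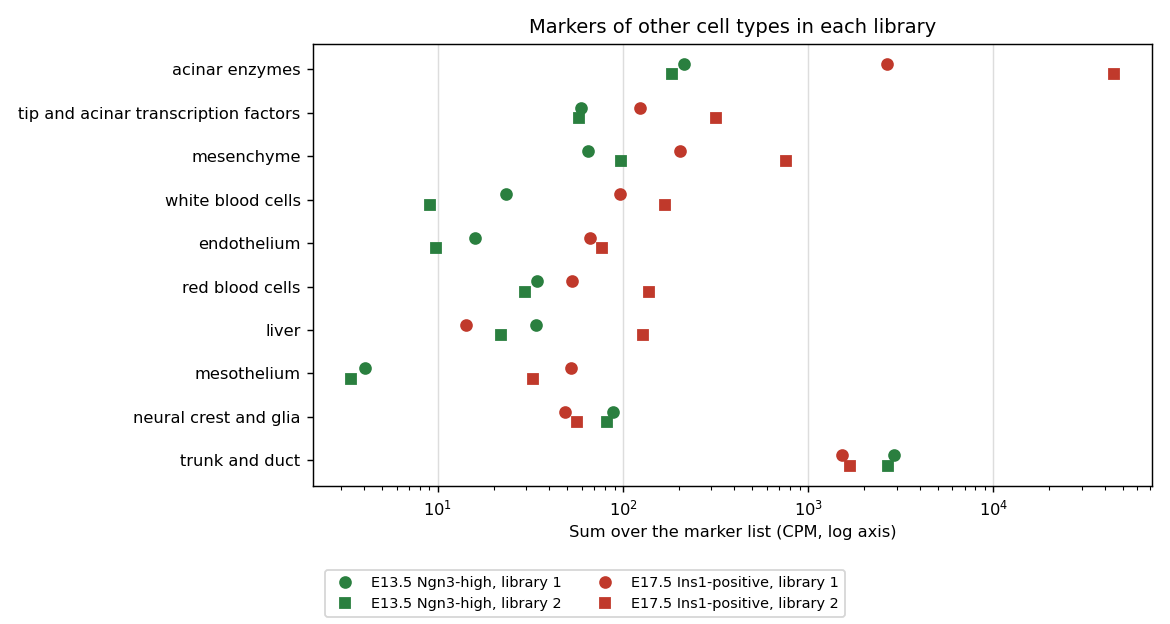
Sum over each marker list in CPM (log axis) for the 4 libraries, with circles for library 1 and squares for library 2, green for Ngn3-high and red for Ins1-positive. Acinar enzymes reach 2672 and 45022 CPM in the Ins1-positive libraries, and library 2 is the higher of the pair for acinar, mesenchymal, blood and liver markers but not for mesothelium.

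The 10 greatest rises and falls by fold change were mostly not endocrine genes. The rises held 6 acinar or exocrine genes (Try10, Cela2a, Cpb1, Cuzd1, Aqp8 and Aqp12) and 4 entries that had 0 reads in every E13.5 library. These 4 were the predicted entries Gm11410, Gm15662 and AC092404.1 and the microRNA entry Mir6236. The call was lost for Try10 without Ngn3-high library 1, and for Cuzd1 and Aqp12 without either Ngn3-high library or with DESeq2. Without Ins1-positive library 2 the log2 fold changes of Try10, Aqp8, Aqp12, Cpb1 and Cuzd1 were 9.27, 8.67, 7.78, 7.36 and 6.94. Against a floor of 3 counts over the Ngn3-high group, Gm11410 was at least 7178-fold higher, at 736 and 761 CPM. Among the falls, 8 were pseudogene or predicted entries such as Rps6-ps4, which was at 13.4 and 15.9 CPM and then at 0 in both Ins1-positive libraries, at least 135-fold lower against a floor of 3 counts over that group. Dynlt1b, a dynein light chain gene, fell from 75.4 and 81.1 CPM to 0.134 and 0.157 CPM, and the muscle sodium channel gene Scn4a from 26.7 and 17.3 CPM to 0.0672 and 0 CPM, 1 read in all.

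Such all-or-none entries were then counted over the whole table. There were 10 entries with 10 CPM or more in all 4 E13.5 libraries and 3 counts or fewer in each Ins1-positive library, of which 8 are pseudogenes by RefSeq class or name. In the other direction there were 6 entries, of which Kcnk9 and Car10 are protein-coding. Kcnk9, a potassium leak channel gene picked here after its values were seen, was at 0.119 and 0.166 CPM in Ngn3-high and at 136 and 123 CPM in Ins1-positive cells. Reads of pseudogenes and of copies nearly identical to other genes can be assigned differently between libraries, so these entries and Dynlt1b are uncertain. A difference in library preparation or processing between the stages was not tested for them.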

How the data were processed

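Bulk RNA was sequenced from sorted cells of mouse pancreas. Per the labels' protocols, poly(A) RNA was made into libraries with a directional kit. The deposited table holds whole-number read counts per gene made by the authors. The submitters' processing notes list HTSeq 0.6.0, TopHat2 2.1.0, DESeq 1.20.0, Bowtie2 and build mm10, without saying what each did. Whether counting used strand, and with which annotation, is not given in the sources used here. Reads of antisense pairs may therefore be mixed. A deposited gene length column (another unit, in bases) was used for RPKM computed from the counts. Of 40916 entries, 92 ERCC sequences were left out and 0 sample columns were unmapped.

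Counts of 6 bulk libraries were fitted with edgeR 4.0.16 (R 4.3.3, limma 3.58.1), with its quasi-likelihood test after its filter on low expression and trimmed-mean scaling, and Benjamini-Hochberg adjustment over 15684 genes, at 0.05. The steps were tested on simulated data. Alternatives were DESeq2 1.42.0, other scalings, no filter, the 4 compared libraries alone, omission of acinar or insulin genes, a replicate block and leaving out each library.

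Members and lists were chosen with earlier results of these data known. Named genes are a fixed set, the 10 greatest rises and 10 greatest falls (no overlap, and a mean of at least 10 CPM where higher), and up to 4 called members per list and direction with 2 uncalled ones. Symbols were matched to RefSeq (GRCm38.p6) for coordinates, promoters and gene class. Some genes are not reported here.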

Additional observations from a re-analysis of the deposited data

How the results depend on the processing

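The counts of genes called higher (4087) and lower (3903) stayed within 1.5 times under each alternative run, as did those of at least 2-fold. Leaving out one library gave 3222 to 3665 higher and 3207 to 3337 lower genes, and 3018 to 3420 of the higher and 3017 to 3166 of the lower genes were shared with the full comparison. Rises made up 51.2% of calls, against 44.8% with total counts, 53.8% with relative log expression size factors and 52.7% with DESeq2. The median over all genes moved to -0.07 with total counts, the furthest of the scalings. Direction reversed, past the threshold, for 3 named genes without Ins1-positive library 2, namely Afp at -3.75, Hbb-y at -2.69 and Ldha at -1.02, which were not called with all libraries. Without library 1 they passed in the other direction, at 1.29, 3.64 and 1.29. The cause was not tested. Replicate numbers showed no clear pairing over all genes tested. Deviations of same-numbered libraries correlated at 0.03 between Ngn3-high and Ins1-positive cells and at 0.07 and 0.09 with Ngn3-low cells. Such correlations do not exclude a pairing that affects few genes. With replicate number as a block, 4118 genes were higher and 4053 lower. Of genes named above, that block added calls for Kcnj11 (-0.35) and Hspa1a (1.31), and the heat shock list went from 0 to 3 higher. With 2 libraries per group, the spread is borrowed from all 6 bulk libraries, and a group left with 1 library is assumed to vary like the others. Differences near the floor of 3 counts are not detectable at this depth.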

Other observations

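Protein-coding genes outside the lists that changed most in both libraries were also read out. This selection was made after the values were seen and took genes at 20 CPM or more in both libraries of the higher group, within 1.5-fold of each other, and with more than 3 counts in each library of the lower group. Among the rises, Tmem215, a membrane protein gene, went from 1.02 and 1.58 CPM to 276 and 198 CPM, higher by 7.55 on the log2 scale (edgeR adjusted p = 4.68e-05). Cntfr, the receptor of ciliary neurotrophic factor, went from 3.94 and 3.33 CPM to 313 and 224.5 CPM (6.19, edgeR adjusted p = 1.21e-06). The purinergic receptor gene P2ry1, which senses extracellular nucleotides, went from 3.70 and 7.16 CPM to 285 and 235 CPM (5.62, edgeR adjusted p = 3.5e-06). Rims3, a gene of the vesicle release zone, Ntrk2, a neurotrophin receptor gene, and Chrm3, the muscarinic receptor gene through which acetylcholine raises insulin release, rose by 5.90, 5.07 and 5.04. All of these were higher in both Ins1-positive libraries than in both progenitor libraries.

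Among the falls, Mdk, the gene of the growth factor midkine, went from 714 and 596 CPM to 11.5 and 13.4 CPM (-5.72, edgeR adjusted p = 9.97e-07). Tgm7, a transglutaminase gene, stood at 3.02 and 2.52 CPM in the Ngn3-low population, at 267 and 275 CPM in Ngn3-high and at 2.28 and 2.51 CPM in Ins1-positive cells (-6.82, edgeR adjusted p = 4.19e-07). Slc17a7, a vesicular glutamate transporter gene, went from 0.108 and 0.229 CPM in Ngn3-low cells to 33.1 and 28.9 CPM in Ngn3-high and 0.672 and 1.41 CPM in Ins1-positive cells (-4.91, edgeR adjusted p = 1.42e-05). The middle population was the highest of the 3 for both genes. Serpina1c and Serpina1e, antitrypsin genes of a family of near-identical copies, fell by 7.71 and 7.40 on the log2 scale, and their counts are uncertain for that reason.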
